A study of Mus musculus with 13 samples.

Results

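The pancreas of old mice that had gone through 1 cycle of OSKM expression was compared with the pancreas of young mice, to see which transcripts still differed from young tissue after treatment and recovery. All mice were females of the reprogrammable i4F-B line, which carries a doxycycline-inducible cassette for Oct4 (Pou5f1), Sox2, Klf4 and Myc (OSKM) inserted in the Pparg gene. The comparison took 8 of the 13 mice of the series, chosen by the treatment given in the labels: 4 old-OSKM mice, labelled as 58 weeks old, which had received doxycycline for 1 week and then recovered for 2, and 4 young mice of 13 weeks, untreated. The remaining 5 mice, 55 weeks old and untreated, are the old group. They entered the fit to estimate the spread between mice, and their values are given for context. Each mouse gave 1 library of total RNA depleted of ribosomal RNA, so n counts mice. The old-OSKM and young groups differed in age, doxycycline and OSKM expression together, and these cannot be told apart here.

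OSKM are the transcription factors that turn differentiated cells into pluripotent cells when they are expressed for long enough. In partial reprogramming the cassette is switched off before cells lose their identity. Most of the exocrine pancreas is made of acinar cells, which secrete digestive enzymes; islets, ducts, vessels, fibroblasts and resident immune cells make up the rest, and a dissected pancreas can also hold fat, pancreatic lymph nodes and neighbouring tissue. In bulk tissue, fewer cells of a type and less RNA per cell cannot be told apart.

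The table gave log2 RPKM (reads scaled by transcript length and library total) for 23366 genes, where 0 is 1 RPKM, with no counts and no read total per mouse, so the depth behind each value is unknown. Acinar genes were at the top in every mouse: Ctrb1, the precursor of chymotrypsin, was the highest gene in all 13 libraries. Quantile normalization gives the top ranks fixed values, so its 11.11 in every mouse says nothing about change. The spread was unequal. The median SD of a gene was 0.224 in the old-OSKM group, 0.138 in the young group and 0.120 in the old group (log2 scale), and old-OSKM mouse 4 lay farthest from its group, with a median absolute deviation of 0.280 against 0.156 to 0.162 in the other old-OSKM mice. The sample identifiers fall in an early run (609 to 621) and a late run (641 to 643). All 4 old-OSKM mice and young mice 1 and 2 belong to the early run, and young mice 3 and 4 to the late run.

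A small number of genes separated the groups by the stricter, adjusted test. The actin nucleator Cobl, the long non-coding RNA 1810007D17Rik and the BK potassium channel gene Kcnma1 were 2.73, 2.84 and 2.63 times higher in old-OSKM than in young pancreas, the proteoglycan gene Gpc3 was 1.96 times higher, and the POU transcription factor gene Pou3f4 was lower. A gene was called where the groups differed by more than 1.5-fold with a raw p under 0.01 in limma. By that rule 146 genes (0.625% of those tested) were called, 106 higher (0.454%) and 40 lower (0.171%) in old-OSKM pancreas. With Benjamini-Hochberg adjustment over all genes, 10 genes (0.0428%) had an adjusted p under 0.05, 9 of them higher (0.0385%) and 1 lower (0.00428%). A raw p under 0.05 was reached by 1184 genes, or 5.07% of those tested (2.91% higher and 2.16% lower). That is close to the share this limit gives when no gene differs. Calls that rest on the raw p alone can therefore include genes that do not differ. The called genes were mostly low: only 16 of the 146 had a mean above 1 RPKM in the group where they were higher, while 8414 of all genes had a mean above that level over the 8 mice. The values of the 4 old-OSKM and the 4 young mice did not overlap for 105 of the called genes (71.9%, against 1.9% of all genes, of which 1.09% were higher and 0.813% lower in old-OSKM). With the mean z-score of each mouse over all genes as a covariate, 74 genes were called higher and 48 lower, so that the share called higher was 60.7% in place of 72.6%.

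**Figure D1:**
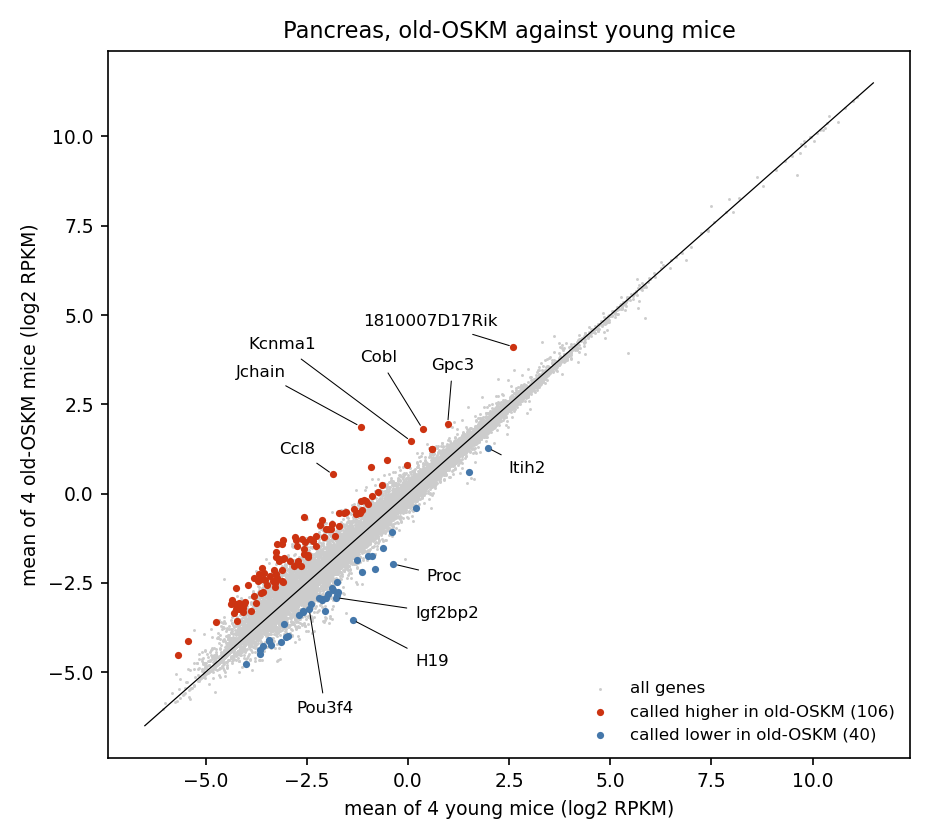
Mean log2 RPKM of the 4 young mice (x axis) against the mean of the 4 old-OSKM mice (y axis), 1 point per gene, with the line of equal values; red points are the 106 genes called higher and blue points the 40 called lower in old-OSKM. Almost all called genes lie below 0 on both axes, and 1810007D17Rik, Gpc3, Cobl and Kcnma1 stand above the line at higher levels.

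Cobl, which nucleates actin filaments in neurons and in the brush border of epithelia, is encoded at chr11:12236676-12465022 (GRCm38.p6, whole gene). Its values were 1.59, 1.77, 2.12 and 1.77 log2 RPKM in old-OSKM mice 1 to 4 and 0.32, 0.41, 0.55 and 0.16 in young mice 1 to 4. Every old-OSKM mouse was at least 1 log2 unit above every young mouse. The difference was 1.45 ± 0.14 (log2, SE; 2.73-fold; limma, adjusted p = 0.00418), and the old mice stood at 1.94 ± 0.24 (SD, n = 5). The transcript 1810007D17Rik, annotated as a long non-coding RNA at chr19:58606329-58629753, had 3.81, 4.36, 4.36 and 3.91 log2 RPKM in the old-OSKM mice. In the young mice it had 2.53, 2.59, 2.96 and 2.35. It was thus the most abundant of the called genes; it was 1.5 ± 0.15 higher on the log2 scale (2.84-fold, adjusted p = 0.00418), and the old mean was 4.39 ± 0.10.

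Kcnma1, the pore-forming subunit of the large-conductance potassium channel, lies at chr14:23292288-24005110. It measured 1.15, 1.27, 1.32 and 2.13 log2 RPKM in old-OSKM mice and 0.23, -0.18, 0.19 and 0.06 in young mice. The groups did not overlap, and old-OSKM mouse 4 was the highest; without that mouse the difference fell from 1.39 to 1.17. Gpc3, glypican-3, a heparan sulphate proteoglycan of the cell surface that restrains growth during development, lies at chrX:52272426-52613974. It had 1.83, 1.97, 2.07 and 1.93 log2 RPKM in the old-OSKM mice against 0.68, 0.77, 1.14 and 1.34 in the young mice, a difference of 0.97 ± 0.14 (adjusted p = 0.0387). Here the young mice were the more dispersed group: young mice 3 and 4, of the late run of identifiers, were the highest of the 4, and within the early run the difference was 1.22. The old means of Kcnma1 and Gpc3 were 1.52 ± 0.20 and 1.96 ± 0.15.

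The other genes with an adjusted p under 0.05 were lower in level. Pkhd1l1, a large receptor-like protein related to fibrocystin, rose from a mean of -1.89 to -0.86 log2 RPKM. Ska3, a component of the spindle and kinetochore complex, rose from -3.55 to -2.21, with -2.07, -2.24, -2.15 and -2.40 in the old-OSKM mice and the old group between, at -2.81 ± 0.23. Nat8f3, of a family of N-acetyltransferases, rose from -1.16 to -0.20. Fam209 rose by 0.62, to -2.27, -1.92, -1.79 and -2.08 in the old-OSKM mice, while the young mean of -2.63 and the old mean of -2.62 were almost the same; it fell under the fold limit without old-OSKM mouse 2 or 3. Its young and old values were nearly flat at this low level (SD 0.06 and 0.04), and how many reads stand behind them is unknown. These 4 genes shared an adjusted p of 0.0387. Mfhas1 had an adjusted p of 0.0218 with a difference of only 0.41 ± 0.05, under the 1.5-fold limit. The relatives of Nat8f3 next to it on chromosome 6, Nat8f6 and Nat8f7, named after their values were seen, were also called higher (1.03 and 0.94), but not within the early run of identifiers, where the differences were 0.52 and 0.70, nor with the run as a covariate; members of this family are similar in sequence, so their reads may be shared among them.

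Pou3f4, a POU domain transcription factor gene at chrX:110814379-110819108, was the only gene that was lower with an adjusted p under 0.05. It had -3.28, -3.17, -3.14 and -3.35 log2 RPKM in old-OSKM mice and -2.40, -2.37, -2.47 and -2.52 in young mice. The difference of -0.79 ± 0.05 (adjusted p = 0.000206) was small in size, the groups were each very tight, and the old mice lay with the old-OSKM mice at -3.17 ± 0.02. All values were well below 1 RPKM. They also ran in step with those of Nanog, a pluripotency gene at a comparably low level: mouse by mouse, Pou3f4 exceeded Nanog by 0.213 to 0.225 in the old-OSKM group, by 0.211 to 0.228 in the old group and by 0.900 to 0.964 in the young group. Pou3f4 therefore took a single low step in 9 mice and a higher one in the 4 young mice, and how many reads stand behind that step is unknown.

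**Figure D2:**
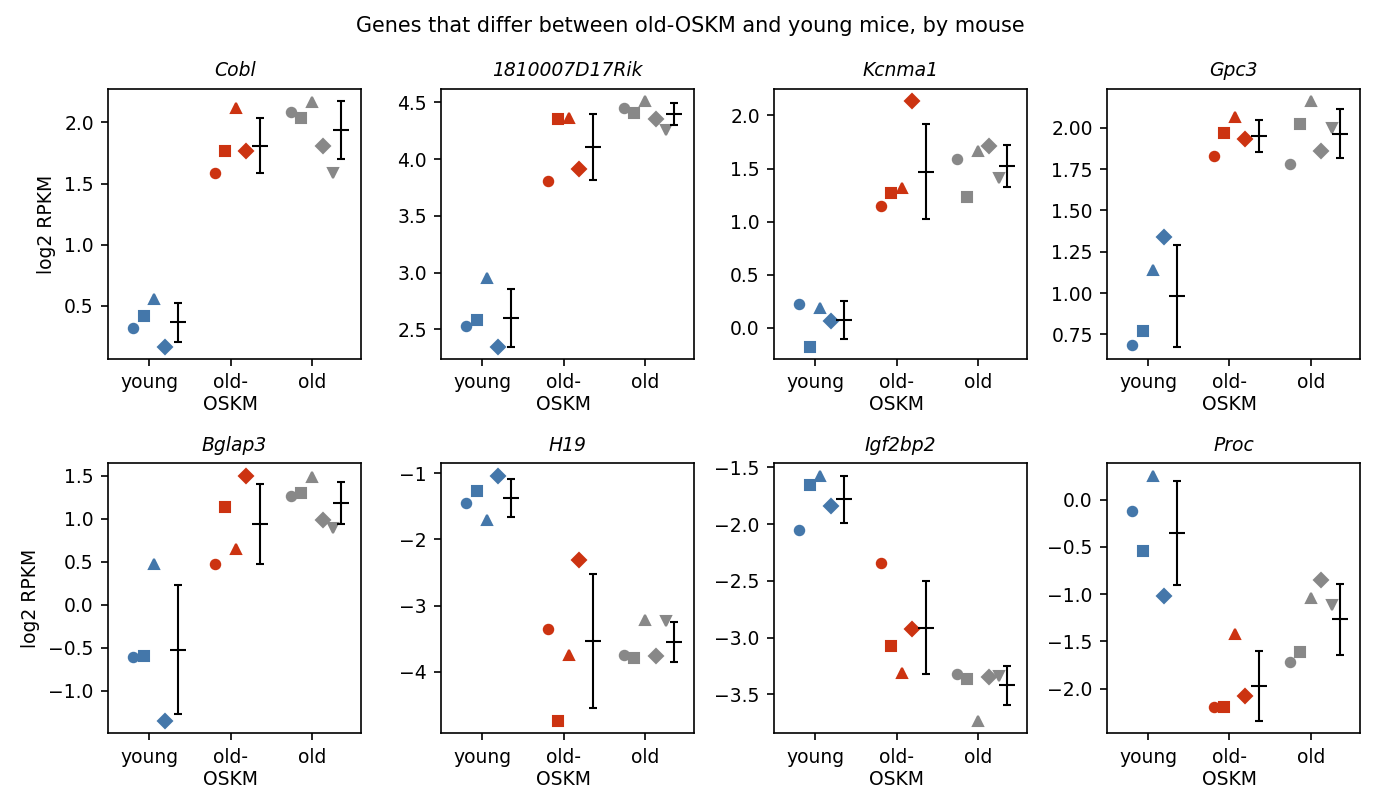
Log2 RPKM of 8 genes (y axis, 1 panel per gene, own scale) in the 4 young (blue), 4 old-OSKM (red) and 5 old (grey) mice; marker shapes give the mouse number (circle 1, square 2, triangle 3, diamond 4, inverted triangle 5), and the bar beside each group is its mean with the SD. In the upper row and for Bglap3 all old-OSKM mice lie above all young mice, and for H19, Igf2bp2 and Proc all lie below them.

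Among genes above 1 RPKM in at least one group, the called and non-overlapping genes with the largest differences also included ubiquitin ligase and redox genes. Mid1, a microtubule-associated ubiquitin ligase, rose by 0.66 and Foxred2, a flavoprotein of the endoplasmic reticulum, by 0.65. The pseudogene 4933400A11Rik, which rose by 0.78, lies inside the span of Mid1 on the X chromosome, so reads of one may have been assigned to the other. The lncRNA 1700028J19Rik rose by 0.83. Bglap3, a gene of the osteocalcin family, had 0.48, 1.13, 0.65 and 1.5 log2 RPKM in old-OSKM mice and -0.61, -0.60, 0.47 and -1.35 in young mice, so that the groups were only just apart; its neighbours Bglap and Bglap2 are near-copies and its reads may be shared with them. The adjusted p of these genes lay between 0.27 and 0.656 (limma), so each rests on its raw p.

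Only 3 of the 40 genes called lower had a young mean above 1 RPKM. Tmem267, a transmembrane protein gene, had 0.86, 0.38, 0.77 and 0.43 log2 RPKM in old-OSKM mice against 1.62, 1.51, 1.72 and 1.16 in young mice, a difference of -0.89 ± 0.21 (limma, adjusted p = 0.474). Itih2, a heavy chain of the inter-alpha-trypsin inhibitor, had 1.56, 1.55, 1.61 and 0.40 log2 RPKM against 2.02, 2.04, 2.04 and 1.80. In 3 old-OSKM mice it was thus close to the old mean of 1.48, and mouse 4 stood alone below them. Without that mouse the difference fell from -0.70 to -0.41, below the 1.5-fold limit, and the call was also lost without any 1 of the 4 young mice. The third gene, Coa4, named after its values were seen, differed by -0.60.

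The genes called lower included members of the imprinted growth and insulin-like growth factor lists. H19 is a maternally expressed imprinted lncRNA, abundant in fetal tissues and silenced after birth in most of them, and it carries the hairpin of a microRNA, miR-675, that is released from it. H19 (chr7:142575530-142578146) had -3.35, -4.74, -3.74 and -2.31 log2 RPKM in old-OSKM mice and -1.46, -1.27, -1.71 and -1.04 in young mice. The groups did not overlap, and the old-OSKM mice were spread over more than 2 log2 units. The difference was -2.17 ± 0.40 (4.49-fold lower; limma, adjusted p = 0.208), the largest fall among the called members of the gene lists; the old mean was -3.55 ± 0.30. The separate entry for Mir675, named after its values were seen, had -1.29, -1.27, -0.90 and -1.17 against -0.66, -0.62, -0.63 and -0.75, a difference of -0.49 ± 0.09, below the fold limit for a call. Its 84-base hairpin (chr7:142577064-142577147, minus strand, GRCm38.p6) lies wholly inside H19, so the same reads can count for both entries, and these libraries do not measure mature microRNAs. The hairpin is shown with both mature arms in capitals, and each arm with its seed (bases 2 to 8), the stretch that pairs with targets, in capitals; the sequences are from RefSeq.
Mir675 hairpin: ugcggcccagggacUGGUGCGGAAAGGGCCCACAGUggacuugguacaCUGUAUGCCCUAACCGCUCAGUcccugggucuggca
mmu-miR-675-5p: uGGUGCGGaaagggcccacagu
mmu-miR-675-3p: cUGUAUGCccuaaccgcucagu
The arms carry different seeds.

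Igf2bp2, an RNA-binding protein that binds the mRNA of Igf2 among others, was the other member of these lists that was called lower. It had -2.34, -3.07, -3.31 and -2.93 log2 RPKM in old-OSKM mice and -2.05, -1.66, -1.58 and -1.84 in young mice. The groups were separate, with old-OSKM mouse 1 closest to the young values. The difference was -1.13 ± 0.19 (adjusted p = 0.118); without old-OSKM mouse 1 it was -1.32, and the old mean was -3.42 ± 0.18. Igf2 itself differed by 0.01 ± 0.19. Of 19 imprinted growth genes, H19 was called lower (0.171% of all genes were) and none was called higher; 13 of the 19 had lower means (38.7% of all genes had higher means) and the list median was -0.15, against -0.04 for all genes. Dlk1, the non-canonical Notch ligand expressed from the paternal allele, named after its values were seen, had -1.85, -1.34, -1.39 and -0.88 against -0.72, -0.87, -0.72 and -0.86 (difference -0.57 ± 0.20, adjusted p = 0.706, not called), so that all old-OSKM mice were below all young mice, mouse 4 by very little. Without old-OSKM mouse 4, 5 of the 19 imprinted genes were called lower, as were 73 of all genes, against 40 with every mouse. In the insulin-like growth factor list, 1 of 17 members was called, Igf2bp2, and 13 had higher means.

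A further called gene that was lower, Proc, encodes protein C, an anticoagulant made mainly by the liver; it was named after its values were seen. It had -2.19, -2.19, -1.43 and -2.08 log2 RPKM in old-OSKM mice and -0.12, -0.54, 0.26 and -1.02 in young mice (difference -1.62 ± 0.29, adjusted p = 0.175). Young mouse 3 was the highest for Proc and was also the mouse with the high hepatocyte genes described further on; without it the difference was -1.41 and the gene was still called. Tet1, the enzyme that begins the removal of DNA methylation, likewise named afterwards, was called lower at -0.59 ± 0.13, with values of -2.04, -1.73, -1.75 and -1.87 against -1.19, -1.03, -1.61 and -1.22. Leaving out any 1 of old-OSKM mice 1 and 4 and young mice 1, 2 and 4 took it under the fold limit.

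The largest group of called genes in the lists belonged to lymphocytes, and it was higher in old-OSKM pancreas. Of the 797 list genes in the table, 8 were called higher and 3 lower, and 35 of the 43 lists had no called member. The B and plasma cell list had 4 of 16 members called higher (against 0.454% of all genes), the T and NK cell list 1 of 19, the lymph node and spleen list 1 of 9 and the MHC class I list 1 of 15. List medians of the difference were 1.00 for T and NK cells, 0.84 for MHC class II presentation, 0.76 for B and plasma cells, 0.59 for macrophages and dendritic cells and 0.53 for interferon-stimulated genes. Old-OSKM mouse 1 had the highest summed RPKM of the 13 mice in each of these 5 lists. Of the 106 genes called higher, 44 were highest in old-OSKM mouse 1, 15 in mouse 2, 24 in mouse 3 and 23 in mouse 4.

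Jchain, the joining chain of secreted IgA and IgM, had the largest difference of the B lineage. It measured 2.88, 1.26, 1.18 and 2.19 log2 RPKM in old-OSKM mice and -0.48, -3.10, 0.56 and -1.65 in young mice. All old-OSKM mice exceeded all young mice, although the young mice alone spanned more than 3 log2 units. The difference was 3.04 ± 0.74 (adjusted p = 0.584), and the old mean was 1.18 ± 0.89. Cd79b, a signalling chain of the B cell receptor, was 1.91 higher, the B cell coactivator Pou2af1 1.81 higher and Ms4a1 (CD20) 1.77 higher, each with an adjusted p of 0.706. For Cd79b and Ms4a1 the groups overlapped. Old-OSKM mouse 1 was highest for all 3, at 0.74, -0.01 and -0.02 log2 RPKM. Without it only 1 member of the B and plasma cell list was called and the list median was 0.34. With the z-score covariate 1 member was called and the median was 0.61. The summed RPKM of the list was 32.3, 23.2, 18.8 and 19.9 in old-OSKM mice 1 to 4, against 15.1 to 20.7 in young mice. Jchain was still called with any 1 of the 8 mice left out, whereas 3 of these mice could each end the call of Cd79b, 5 that of Pou2af1 and 6 that of Ms4a1, old-OSKM mouse 1 and young mice 2 and 4 being among them each time.

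T cell genes showed the same dominance of a single mouse. Cd3g, a chain of the T cell receptor complex, had 0.42, -2.36, -1.85 and -1.87 log2 RPKM in old-OSKM mice and a nearly constant -3.09, -3.08, -3.14 and -3.15 in young mice. Leaving out any of the 8 mice but old-OSKM mouse 2 ended this call. The other defining markers did not reach the call: Cd3e differed by 1.26 ± 0.56 and Cd3d by 1.00 ± 0.49. Summed over the 19 T and NK cell genes, RPKM was 19.7 in old-OSKM mouse 1 and 4.93, 6.11 and 8.12 in mice 2 to 4, against 4.23 to 5.46 in young and 4.33 to 6.98 in old mice. Raw p under 0.05 was reached by 9 of the 19 genes, all higher (2.91% of all genes were higher at that limit), and 17 had higher means. Without old-OSKM mouse 1, 4 genes passed that limit and none was called, and the list median was 0.58. With the z-score covariate, and likewise within the early run of identifiers, 1 gene passed it and none was called.

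Several immune genes outside the lists were called and were named after their values were seen. Cxcr3, the chemokine receptor of activated T cells, had -0.59, -2.41, -1.79 and -1.72 log2 RPKM against -2.39, -3.51, -3.59 and -3.59 (difference 1.64 ± 0.37). Only old-OSKM mouse 2 fell within the young range. The lymphocyte phosphatase gene Ptpn22 was 1.33 higher, with separate groups. The macrophage scavenger receptor gene Marco was 1.52 higher with overlapping groups, since old-OSKM mouse 2, at -3.77, lay within the young range; its call was lost in 15 of 22 alternatives, among them leaving out any 1 of 6 of the 8 mice (all but old-OSKM mouse 2 and young mouse 1). The mast cell protease gene Mcpt4 departed from the pattern of mouse 1. It had -1.87, -1.93, -1.53 and -2.0 in old-OSKM mice against a nearly constant -3.07, -3.06, -3.11 and -3.12 in young mice (difference 1.25 ± 0.23, limma, adjusted p = 0.208). The difference stayed between 1.15 and 1.31 with any 1 of the 8 mice left out, but leaving out a young mouse can hardly move so flat a group. Old mice 3 and 4 were at -3.08 too. The call was lost with a pseudocount of 1, and the smallest difference among the alternatives was 0.198. Ifitm6, of the interferon-induced transmembrane family, was also higher in all 4 mice, at -0.63, -0.53, -0.97 and -1.37 against -2.40, -2.36, -2.47 and -1.51 (difference 1.31 ± 0.25).

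Chemokines that draw such cells were called as well. Ccl8, a chemoattractant of monocytes and T cells, had 2.48, -0.35, 0.36 and -0.35 log2 RPKM in old-OSKM mice and -2.33, -1.57, -1.69 and -1.82 in young mice, a difference of 2.39 ± 0.59 (adjusted p = 0.591). The groups were separate in all mice; without old-OSKM mouse 1 the difference was 1.74. Ccl19, which guides lymphocytes and dendritic cells into lymphoid tissue and marks lymph node stroma, was 1.39 higher, a call that 5 of the 8 mice could each end (old-OSKM mice 1, 3 and 4 and young mice 1 and 2), and its neighbour in the same list, Cxcl13, differed by 1.35 ± 0.56 without being called. The third marker of that list, Ccl21a, differed by 0.46 ± 0.32. Lymph node genes summed to 5.63 RPKM in old-OSKM mouse 1 and 4.05 in mouse 4. In old-OSKM mice 2 and 3 they summed to 2.43 and 2.56, in or near the young range of 1.84 to 2.53. The old mice had 2.13 to 3.15. Whether lymph node in the dissected tissue had a part in these differences was not tested.

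**Figure D3:**
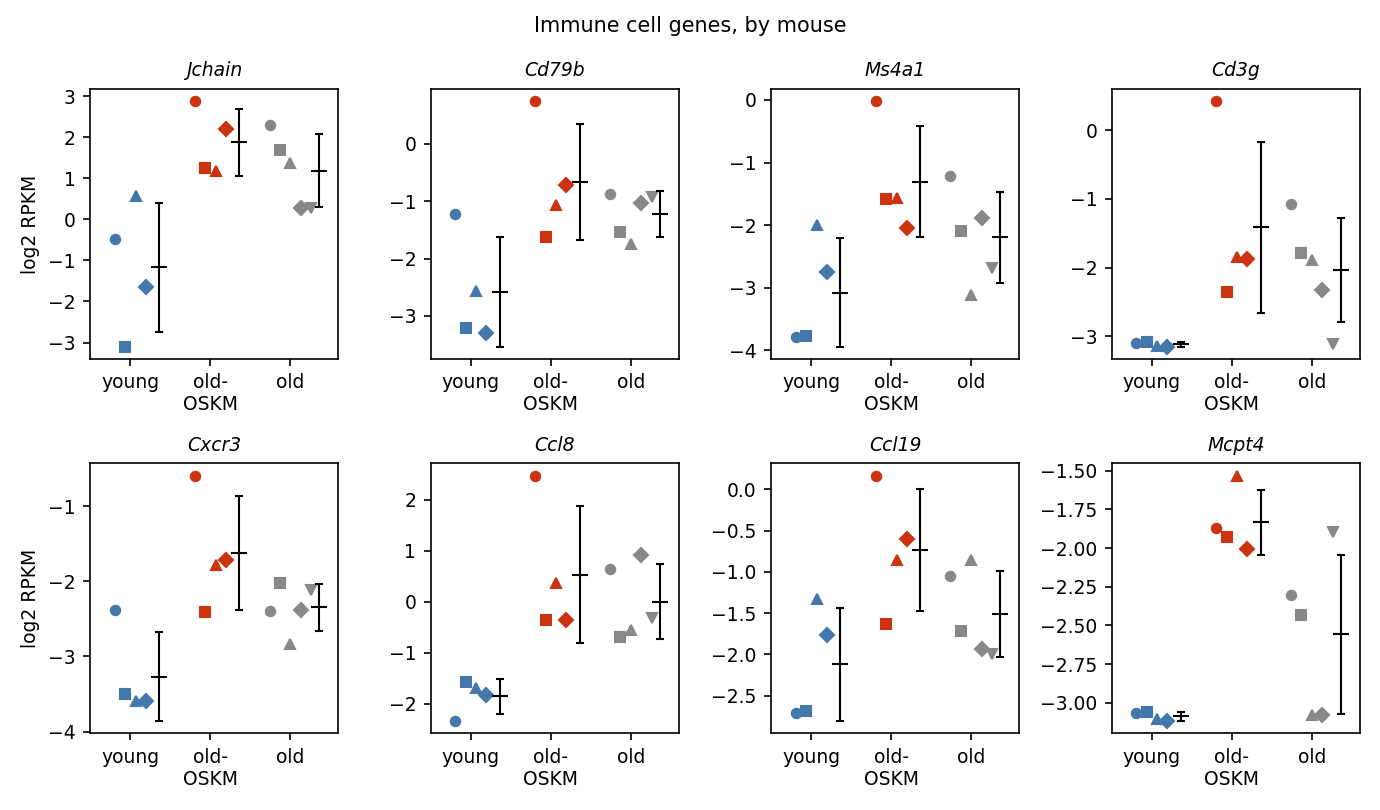
Log2 RPKM of 8 immune cell genes (y axis, 1 panel per gene, own scale) in young (blue), old-OSKM (red) and old (grey) mice; marker shapes give the mouse number (circle 1, square 2, triangle 3, diamond 4, inverted triangle 5) and bars the mean with the SD. Old-OSKM mouse 1 is the highest old-OSKM mouse in every panel but Mcpt4, where the 4 old-OSKM mice lie together between -2.0 and -1.53.

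MHC class II genes, which present peptides of engulfed proteins on macrophages, dendritic cells and B cells, were higher on average without any being called. All 10 members of the list had higher means, 5 of them at a raw p under 0.05. H2-Aa and H2-Eb1 were named after their values were seen. H2-Aa, an alpha chain, had 4.26, 2.37, 2.63 and 3.51 log2 RPKM in old-OSKM mice and 2.51, 1.94, 2.06 and 2.41 in young mice (difference 0.97 ± 0.35, adjusted p = 0.706). H2-Eb1, a beta chain, had 3.51, 1.71, 1.76 and 2.73 against 1.76, 1.15, 1.31 and 1.73 (difference 0.94 ± 0.36, adjusted p = 0.706). In both, old-OSKM mice 1 and 4 were above all young mice, and mice 2 and 3 were in or near the young range. The summed RPKM of the list was 91.7 and 54.8 in old-OSKM mice 1 and 4, 25.3 and 29.9 in mice 2 and 3, and 19.3 to 28.3 in young mice. Without old-OSKM mouse 1 the list median was 0.50, with 1 member at a raw p under 0.05; with the z-score covariate, and within the early run of identifiers, no member reached that limit.

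Class II genes are switched on together through a shared promoter module, in which RFX binds the X box, NF-Y binds the Y box and the coactivator CIITA joins them. The promoters of the pair of genes just described are shown because their values moved together by mouse. Each window runs from 250 bases before to 50 after the start of the gene, on the gene's strand (RefSeq, GRCm38.p6). H2-Eb1 is at chr17:34305617-34305916 on the plus strand and H2-Aa at chr17:34287774-34288073 on the minus strand. Capitals mark matches on either strand to ATTGG, the core of the Y box, whose other strand reads CCAAT, and to ACNGATG, a core of the X box; the matches do not overlap.
H2-Eb1: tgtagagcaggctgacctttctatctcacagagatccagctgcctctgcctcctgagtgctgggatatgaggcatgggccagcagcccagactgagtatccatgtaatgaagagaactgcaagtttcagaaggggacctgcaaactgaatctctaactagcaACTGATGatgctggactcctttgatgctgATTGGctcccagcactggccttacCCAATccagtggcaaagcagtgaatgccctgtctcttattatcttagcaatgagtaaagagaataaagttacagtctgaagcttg
H2-Aa: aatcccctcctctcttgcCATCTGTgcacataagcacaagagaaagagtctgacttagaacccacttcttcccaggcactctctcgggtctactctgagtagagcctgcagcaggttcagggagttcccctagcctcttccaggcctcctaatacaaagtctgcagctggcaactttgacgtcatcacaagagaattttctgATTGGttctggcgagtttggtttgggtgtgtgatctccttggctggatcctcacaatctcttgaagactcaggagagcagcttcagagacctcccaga
In H2-Eb1 the X box core began 88 bases and the Y box core 59 bases before the start. In H2-Aa the Y box core began 48 bases before it, and the 1 match to the X box letters lay far upstream on the other strand. Windows were at hand for 7 of the 10 list genes: of their 8 windows 7 held ATTGG, as did 37.4% of all 32851 windows, and 5 held ACNGATG, as did 9.85% of all windows. Matches counted at any position and on either strand, so the 5 include the far upstream match in H2-Aa.

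Macrophage, interferon and complement genes also had higher means in most members, again without a called member. Of 20 macrophage and dendritic cell genes 19 had higher means; the defining markers Adgre1 (F4/80), Cd68 and Csf1r differed by 0.68 ± 0.31, 0.71 ± 0.34 and 0.33 ± 0.24. The macrophage list median fell from 0.59 to 0.34 without old-OSKM mouse 1 and to 0.28 with the mean z-score of each mouse as a covariate. Of 24 interferon-stimulated genes 23 had higher means, and the list sum was 80.5 RPKM in old-OSKM mouse 1 against 27.6 to 34.6 in the other old-OSKM mice and 26.4 to 32.4 in young mice. Without old-OSKM mouse 1, 16 of the 24 had higher means and the median was 0.16. In the MHC class I list Nlrc5, the transactivator of class I genes, was called 1.48 higher, with -0.11, -2.32, -1.61 and -1.14 against -2.57, -3.59, -2.73 and -2.20 and overlapping groups; the call was lost without any 1 of old-OSKM mice 1 and 4 and young mice 2 and 3. Complement genes had higher means in 13 of 15, with a median of 0.42 that fell to 0.25 without old-OSKM mouse 1 and to 0.17 with the z-score covariate. Adipocyte genes had a median of 0.24, or 0.06 without old-OSKM mouse 1: Adipoq, the adipokine gene, was 1.12 log2 RPKM in old-OSKM mouse 1 and -0.49 in mouse 4 and lay between -3.29 and -1.31 in the other 6 mice, so this marker was uneven between mice too. The part of fat in the immune differences was not tested.

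**Figure D4:**
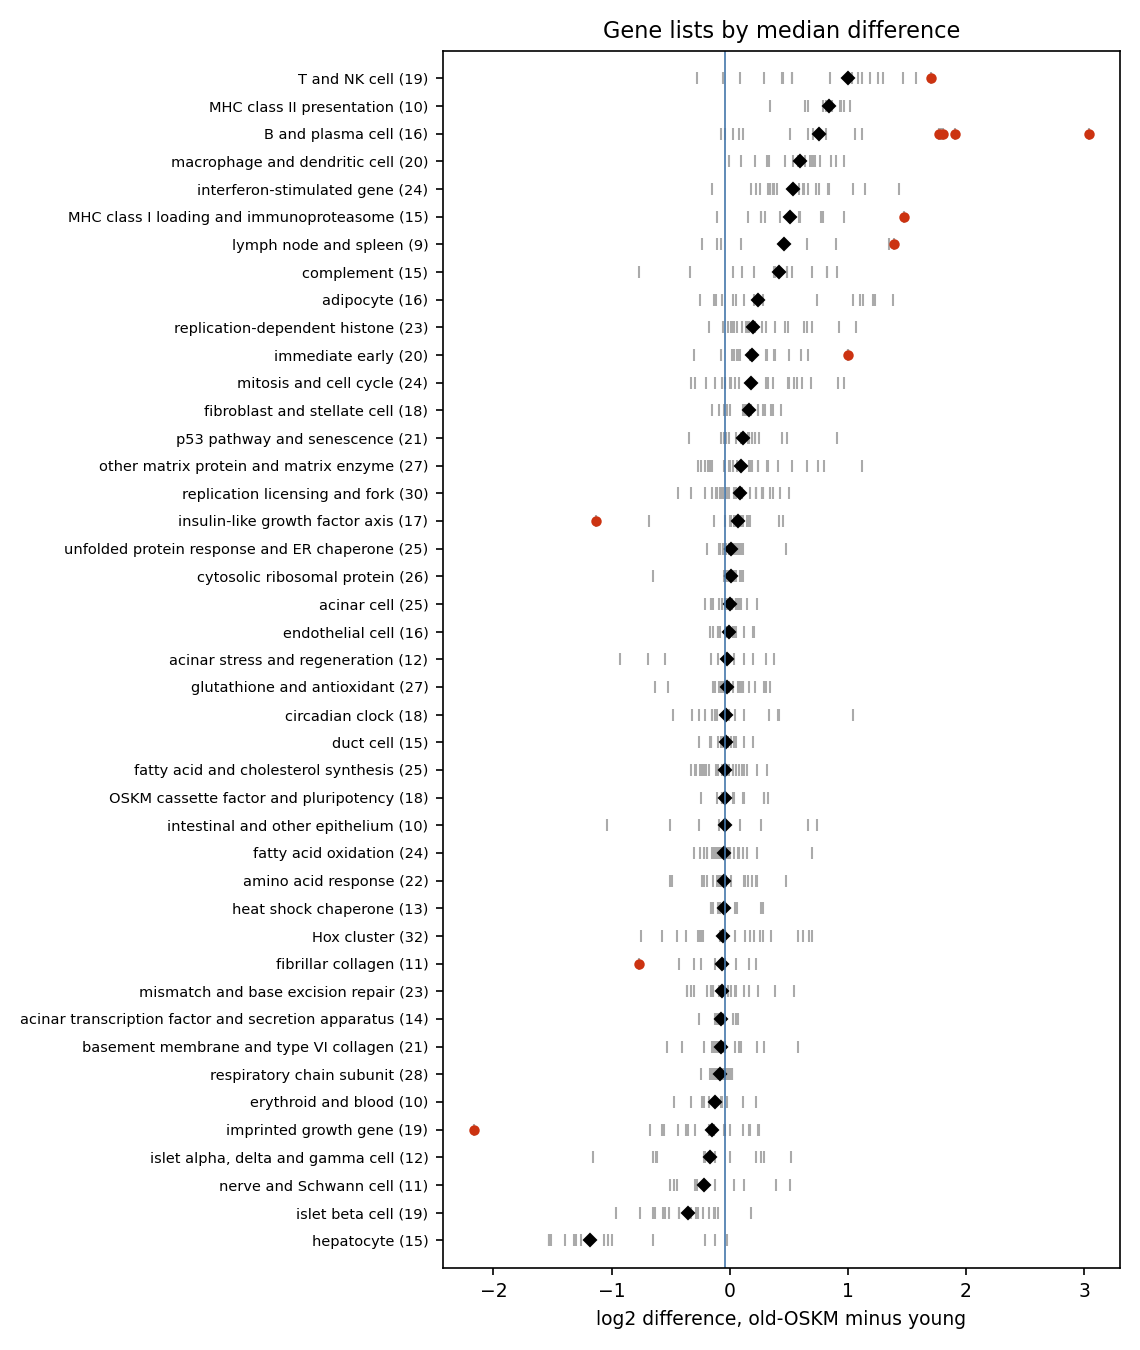
Log2 difference between old-OSKM and young means (x axis) for every member of the 43 gene lists (grey ticks), with the called members in red and the list median as a black diamond; the number of genes is in brackets and the blue line is the median of all genes, -0.04. The immune lists have the highest medians, up to 1.00, and hepatocyte and islet beta cell genes the lowest.

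The lists with the lowest medians turned on single mice. All 15 hepatocyte genes had lower means in old-OSKM pancreas (median -1.18), none was called and none had a raw p under 0.05. The list sum was 101 RPKM in young mouse 3 and 4.23 to 12.1 in the other 12 mice. Alb, the serum albumin gene, was 5.36 log2 RPKM in young mouse 3 and -1.19 to -0.86 in the other young mice, and Apoa1 was 2.87 against -3.11 to -3.06. Without young mouse 3, 7 of the 15 had higher means and the median was -0.04. Of 19 islet beta cell genes 18 had lower means (median -0.35) and none was called. Their sum was 76.6, 160, 113 and 469 RPKM in old-OSKM mice 1 to 4, a range wider than that of the young mice, from 146 to 304. Insulin followed it: Ins2 had 5.50, 6.57, 6.02 and 8.05 log2 RPKM against 6.57, 6.49, 7.49 and 6.92, and Ins1 differed by -0.17 ± 0.53. Without old-OSKM mouse 4 the list median was -0.77, and without mouse 1 it was -0.06.

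**Figure D5:**
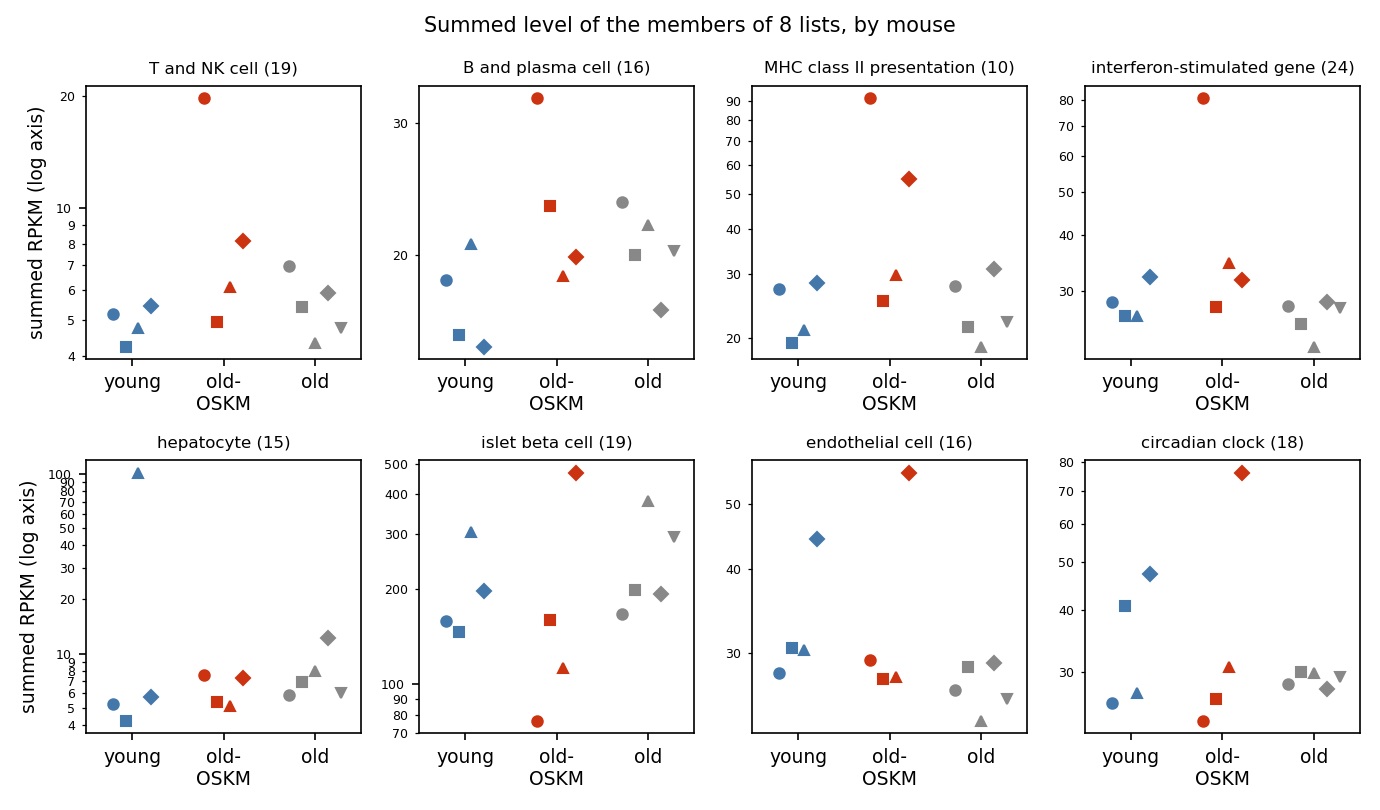
Summed RPKM of the members of 8 lists (log axis, 1 panel per list, number of genes in brackets) in young (blue), old-OSKM (red) and old (grey) mice; marker shapes give the mouse number (circle 1, square 2, triangle 3, diamond 4, inverted triangle 5). Old-OSKM mouse 1 is highest in the 4 immune panels, young mouse 3 in the hepatocyte panel at 101, and old-OSKM mouse 4 in the islet, endothelial and clock panels.

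Of the 25 acinar genes none was called, 13 had higher and 12 lower means, and the differences ran from -0.21 to 0.23. Cpa1 (carboxypeptidase A1) differed by 0.01 ± 0.06 and Cela1 (an elastase) by 0.02 ± 0.07. Both took rank values fixed by quantile normalization, such as 10.30 for Cpa1 in old-OSKM mouse 3 and for Cela1 in mouse 4. Near-equal levels of the highest acinar genes, and of a sum that includes them, therefore say little about change. Among the acinar transcription factors, Ptf1a differed by -0.26 ± 0.22, Rbpjl by 0.06 ± 0.28 and Bhlha15 (Mist1) by -0.07 ± 0.09. The summed level was 21040, 21130 and 21230 RPKM in old-OSKM mice 1 to 3 and 18480 in mouse 4, against 20500 to 20950 in young mice. Duct markers Krt19, Sox9 and Cftr differed by -0.10, 0.04 and -0.08. Old-OSKM mouse 4 also had the highest sum of endothelial genes (55.7 against 27.4 to 29.3 in mice 1 to 3) and of clock genes (76.2 against 23.8 to 30.6).

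No factor of the cassette was called 2 weeks after doxycycline. Pou5f1 had -0.61, -0.71, -2.06 and -0.80 log2 RPKM in old-OSKM mice and -1.70, -0.71, -1.15 and -1.10 in young mice. Sox2 differed by 0.33 ± 0.40, Klf4 by 0.04 ± 0.21 and Myc by 0.03 ± 0.25. Nanog, a marker of pluripotent cells, differed by -0.07 ± 0.05 and Pparg, the site of the cassette, by -0.07 ± 0.18. The Nanog means were very low, -3.45 in old-OSKM and -3.38 in young mice, and its young values were nearly constant. Its small difference and SE therefore say little about change. Among the 18 genes of the cassette and pluripotency list none was called and none had a raw p under 0.05. The RPKM of an endogenous gene and of the cassette copy cannot be separated in a table summed by gene.

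Growth, matrix and stress lists held few called genes. Col11a1, a minor fibrillar collagen, was called lower (-0.77 ± 0.23) at levels between -5.22 and -3.71 log2 RPKM in these 8 mice, 1 of 11 fibrillar collagen genes (0.171% of all genes were called lower). Egr3, an immediate early transcription factor gene, was called higher (1.00 ± 0.32), 1 of 20 (0.454% of all genes were called higher); its groups were separated by a narrow margin, -2.67 in old-OSKM mouse 4 against -2.69 in young mouse 1. Among 24 mitosis genes and 30 replication genes none was called. Besides Ska3, described above, 2 cell cycle genes outside those lists, named after their values were seen, were called. They were Esco2, the acetyltransferase that ties sister chromatids, at 1.43 ± 0.31, and Tk1, thymidine kinase, at 0.80 ± 0.24. Tk1 lost its call in 9 of 23 alternatives, among them leaving out any 1 of 5 of the 8 mice. Esco2 lost it only with a pseudocount of 1. Esco2 had -1.98, -2.49, -2.43 and -2.57 log2 RPKM in old-OSKM mice against -4.14, -3.40, -4.17 and -3.49 in young mice, and the old mean was -3.72 ± 0.60. Replication-dependent histone genes had higher means in 20 of 23 with a median of 0.20. Without old-OSKM mouse 1, 13 of the 23 had higher means and the median was 0.09. Their summed RPKM was 90.8 in old-OSKM mouse 1 and 57.2 to 76.5 in mice 2 to 4, against 58.1 to 68.0 in young mice. Respiratory chain genes had lower means in 25 of 28 with a median of -0.08; without old-OSKM mouse 4, 23 of the 28 had higher means.

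Other called genes, all named after their values were seen, came from metabolism and signalling. Bdh2, a short-chain dehydrogenase, had 1.13, 0.88, 1.30 and -0.30 log2 RPKM in old-OSKM mice and -0.18, -0.94, -0.64 and -1.92 in young mice. It was 1.67 ± 0.40 higher, with old-OSKM mouse 4 inside the young range; without that mouse the difference was 2.02. Slc6a4, the serotonin transporter, had -0.20, -0.06, 0.14 and -0.60 against -1.30, -1.06, -0.86 and -1.10 (difference 0.90 ± 0.21) and an old mean of 0.41 ± 0.38. Runx1, a transcription factor of blood and injured epithelium, was 0.83 ± 0.18 higher, with separate groups and an old mean of -0.65 between the old-OSKM mean of -0.20 and the young mean of -1.04. Ptn, the heparin-binding growth factor pleiotrophin, had -0.23, -0.54, -0.71 and -0.42 against -1.49, -0.94, -1.18 and -0.97 (difference 0.67 ± 0.14); the old mean was -1.14, the same as the young mean of -1.14.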

How the data were processed

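Pancreas RNA from 13 mice was sequenced as paired-end reads. The authors aligned the reads to mm10 with STAR 2.3.0e, estimated RPKM with Casper and deposited log2 RPKM per Entrez gene after quantile normalization. A correction for total reads that the methods describe was not seen in the values. The log2 values were used as deposited, with no pseudocount or filter. Groups came from the labels. All 13 mice entered 1 fit in limma 3.58.1 (R 4.3.3) with group as the only term, and old-OSKM was compared with young; p-values measure the spread between single mice. Genes were called at a fold above 1.5 and a raw p under 0.01, and p was adjusted by Benjamini-Hochberg over 23366 genes. The scripts were tested on simulated data. Symbols, spans and sequences came from RefSeq (GRCm38.p6), which named 23273 genes.

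The comparison, the gene lists and the rule for named genes were chosen with earlier results of these data known. The rule took genes with an adjusted p under 0.05 (up to 10 each way), up to 15 called and non-overlapping genes each way above 1 RPKM, up to 4 called members of each list, the cassette genes with Nanog and Pparg, and the first 3 markers of each cell type; other genes are marked as named after their values were seen. A gene that the rule named is not reported here. A group was nearly constant where its mean was below -1 and its mice lay within 0.1. The young group was nearly constant for 15 of the 106 genes called higher. Of 802 listed genes 797 were found, 26 by an older symbol; mitochondrially encoded genes are not analysed here. Alternatives covered normalization, filters, pseudocounts, covariates and leaving out each mouse.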

Additional observations from a re-analysis of the deposited data

Results flagged for a closer look

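In the old-OSKM and young groups of 4 mice, a value was picked out where the gap to its nearest neighbour took up most of the range of the group (Dixon's 95% limit). The old group was not tested. Of 198 groups of named genes tested, 23 had such a value, and chance alone picks out about 1 in 20. All values are log2 RPKM and no explanation was weighed.

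Old-OSKM mouse 4 stood apart for the secreted inhibitor Itih2 at 0.40, the acinar factor Rbpjl at 4.20, the endothelial genes Cdh5 at 1.53 and Kdr at 2.28, Alb at -0.74 and Ttr at 2.33. Young mouse 3 stood apart for the hepatocyte genes Alb at 5.36 and Apoa1 at 2.87 and for the T cell gene Cd3d at -1.97. Old-OSKM mouse 1 stood apart for Apoa1 at -1.13 and for the intestinal gene Fabp2 at -1.37, which was -3.21 to -3.05 in the other old-OSKM mice. Young mouse 4 was alone for the stromal genes Dcn at 4.38 and Lum at 2.18, and for Itih2 at 1.80, Nat8f7 at -2.68 and Ifitm6 at -1.51. Young mouse 1 was alone for Egr3 at -2.69, Cxcr3 at -2.39 and Marco at -3.07, each nearer to the old-OSKM values than the other young mice were. Old-OSKM mouse 3 was alone for Pou5f1 at -2.06, the lowest level of that cassette factor among the 8 mice, and for Proc at -1.43. Muc2 in old-OSKM mouse 2 was -4.98. Cpa1 in young mouse 2 was 10.24, where the other 3 young mice share 1 rank value of 10.16.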

How the results depend on the processing

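None of the named genes that were called changed direction under any alternative run. Repeating the quantile normalization or centring each mouse on its median left 146 called genes, the same 146. The counts depended on how low genes were treated: called, higher, lower and adjusted-p counts were 18, 15, 3 and 5 with a mean above 1 RPKM required, 38, 32, 6 and 7 with a mean log2 RPKM above -1, 76, 59, 17 and 5 with a pseudocount of 0.1, and 8, 7, 1 and 5 with a pseudocount of 1. The filters tested fewer genes (8414 and 11653) and the pseudocounts shrink the folds of low genes by construction. Within the early run of identifiers 62 genes were lower. Genes with an adjusted p under 0.05 numbered 6 with only the 8 mice in the fit and 4 with the run as a covariate; the cause was not tested. Leaving out 1 mouse gave 121 to 253 called genes (lowest without old-OSKM mouse 1, highest without old-OSKM mouse 2), 79 to 195 higher, 36 to 73 lower and 3 to 10 with an adjusted p under 0.05; of the 146 genes, 88 were called again without old-OSKM mouse 1 and 107 without old-OSKM mouse 2. Cobl kept an adjusted p under 0.05 in all 24 alternatives, the highest being 0.0326, and Pou3f4 in all 22 that tested it. Pou3f4 nevertheless fell under the fold limit with a pseudocount of 0.1 and of 1, and its difference shrank to as little as -0.098. The highest adjusted p was 0.138 for 1810007D17Rik, 0.258 for Mfhas1 and Pkhd1l1, 0.269 for Ska3, 0.308 for Gpc3, 0.356 for Kcnma1 and Nat8f3 and 0.501 for Fam209. Cd3g lost its call in 17 of 22, Marco in 15 of 22, Itih2 in 15 of 24, Egr3 in 13 of 22, and Ms4a1 and Col11a1 in 11 of 22 each. Both the run of identifiers as a covariate and the early run alone ended the calls of Itih2, Cd79b, Cd3g, Col11a1, Egr3, Nat8f6, Nat8f7, Tk1 and Marco; the covariate alone ended those of Pou2af1 and 4933400A11Rik, and the early run, with 2 young mice, those of Fam209, Ccl8, Nlrc5, Cxcr3, Bdh2 and Ptpn22. No paired analysis was run, because the groups held different mice and the labels give no pairing between them. Depth per mouse is unknown and most called genes lie below 1 RPKM, so the counting error behind these low values cannot be given.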
